A study of Mus musculus with 69 samples.

Results

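A set of 10 genes that mark the balance between epithelial and mesenchymal adhesion were followed in mouse embryonic stem cells (ESCs) with and without an H3.3K27R substitution. The members were chosen by name from the mRNA-seq count table, and all 10 were found among its 16263 genes. Of these, 6 are epithelial (Cdh1, Cdh3, Epcam, Cldn6, Cldn7 and Esrp1) and 4 are mesenchymal (Cdh2, Zeb1, Zeb2 and Snai1). The cells were J1 ESCs, a line from the inner cell mass of a 129S4/SvJae blastocyst. WT cells were compared with H3.3K27R #18 (Mut18) and H3.3K27R #43 (Mut43), each a single clone in which lysine 27 of H3.3 was changed to arginine at H3f3a and at H3f3b. No drug or time course was applied, and all lines had grown on feeder cells before feeder-free passages. There were 2 mRNA-seq and 2 ATAC-seq libraries for each line, and the labels call the mRNA-seq libraries biological replicates without saying more about the cultures.

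Epithelial cells hold together through E-cadherin and tight junctions, whereas mesenchymal cells are loosely attached and rely on N-cadherin and integrins. In an epithelial-mesenchymal transition, transcription factors of the Snail and Zeb families bind E-boxes (CAGGTG, or CACCTG on the other strand) and repress epithelial genes. Mouse ESCs are epithelial in this sense, since they grow as compact colonies joined by E-cadherin, and N-cadherin replaces it as cells leave pluripotency toward mesoderm or neural fates.

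Start regions of epithelial genes and of repressors are shown because the E-box is the element that Snail and Zeb factors bind. Whether they bind the genes shown was not tested. Of the 10 genes, 5 had RefSeq windows in the table used here (Cldn6, Cldn7, Epcam, Snai1 and Zeb2), each running from 250 bases before to 50 after a start, in GRCm38.p6. These genes had 9 windows, since Zeb2 and Cldn7 have several starts, and 4 of the 9 (44.4%) held at least 1 E-box, beside 20.2% of all 32817 windows. The 4 windows belonged to 4 of the 5 genes. Of the 9 windows, 3 held 2 E-boxes (at Epcam, Cldn6 and Cldn7), beside 2.88% of all 32817 windows with 2 or more. None was found in the 4 windows of Zeb2. Both strands were searched, and a match describes letters, not a bound site. The sequences below run 5′ to 3′ along transcription with E-boxes in capitals.
Epcam, 250 bases before the start at chr17:87635729-87635978 (plus strand, GRCm38), E-boxes at -187 and -19 from the start: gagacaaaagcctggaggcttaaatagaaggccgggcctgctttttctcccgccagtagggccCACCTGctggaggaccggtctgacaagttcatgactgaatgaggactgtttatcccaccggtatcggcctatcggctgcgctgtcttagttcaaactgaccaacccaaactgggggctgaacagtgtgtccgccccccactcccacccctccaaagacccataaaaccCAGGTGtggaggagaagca
Snai1, 250 bases before the start at chr2:167537945-167538194 (plus strand), E-box at -126: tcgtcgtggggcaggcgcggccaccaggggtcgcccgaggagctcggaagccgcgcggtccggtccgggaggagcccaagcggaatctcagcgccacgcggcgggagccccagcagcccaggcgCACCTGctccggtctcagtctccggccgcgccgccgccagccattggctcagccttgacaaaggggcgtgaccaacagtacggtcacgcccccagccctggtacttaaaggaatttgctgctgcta
Zeb2, 250 bases before the start at chr2:45117443-45117692 (minus strand), no E-box: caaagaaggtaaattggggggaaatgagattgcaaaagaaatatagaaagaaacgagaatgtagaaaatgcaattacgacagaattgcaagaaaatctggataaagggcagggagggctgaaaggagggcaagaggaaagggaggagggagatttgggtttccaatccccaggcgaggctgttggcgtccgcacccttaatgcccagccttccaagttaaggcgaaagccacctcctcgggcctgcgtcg
Cldn6, 30 bases at chr17:23679260-23679289 (plus strand), E-box at -93: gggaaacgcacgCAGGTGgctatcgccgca
Cldn7, 30 bases at chr11:69965312-69965341 (plus strand), E-box at -97: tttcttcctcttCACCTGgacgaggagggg
Cldn7, 30 bases at chr11:69965352-69965381 (plus strand), E-box at -57: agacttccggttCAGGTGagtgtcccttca
The Cldn6 stretch and the first Cldn7 stretch lie in annotated 5′ exons, and the second Cldn7 stretch crosses the end of one.

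The count table held 14992756 to 15143998 reads per library. Whether reads were subsampled to a common depth before counting is not given in the sources used here. After low counts were filtered, 14061 genes were tested with edgeR's quasi-likelihood test, 4 mutant against 2 WT libraries, and p-values were adjusted over all of them by the Benjamini-Hochberg method. At an adjusted p under 0.05, 24.5% of tested genes were lower and 23.5% were higher in the mutants, and past 2-fold these shares were 5.65% and 3.28%. A count per gene cannot show a base substitution, and H3f3a had 8437 to 10937 normalized counts per library and H3f3b 11655 to 13557. All 12 ESC markers were well expressed, with Pou5f1, a core pluripotency factor, above 10000 normalized counts in all 6 libraries. Markers of feeder fibroblasts were also present and moved with the genotype. Their 14 genes summed to 11993 and 14022 normalized counts in WT and to between 6932 and 9827 in the mutants. Of 13 tested, 12 were lower in the mutants and 5 of them past 2-fold. With DESeq2, 8 were lower. Lum, a fibroblast proteoglycan, was at 0 in 1 library of each line. WT library 1 held more of some of these RNAs than any other, with 842 normalized counts of the collagen Col3a1 against 257 in WT library 2 and at most 149 in a mutant. In bulk libraries, fewer cells of one type and less RNA per cell cannot be told apart.

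In the mutants, 6 of the 10 adhesion genes fell, 1 rose and 3 did not pass the test. All 10 passed the filter on low counts. The fall took in both sides of the balance: 3 of 6 epithelial genes (Cdh1, Cldn6 and Cldn7) and 3 of 4 mesenchymal genes (Cdh2, Zeb1 and Zeb2). The gene that rose was Cdh3. The share that fell, 60%, stands beside 24.5% of all tested genes, and 2 of the 10 (Cdh2 and Zeb2) fell past 2-fold beside 5.65%. The 10 genes were chosen with earlier results of these data known, so these shares are not a test. The median log2 fold change was -0.34 over the 10 genes and 0.00 over all tested genes, or -0.21 over the epithelial and -0.78 over the mesenchymal genes.

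**Figure D1:**
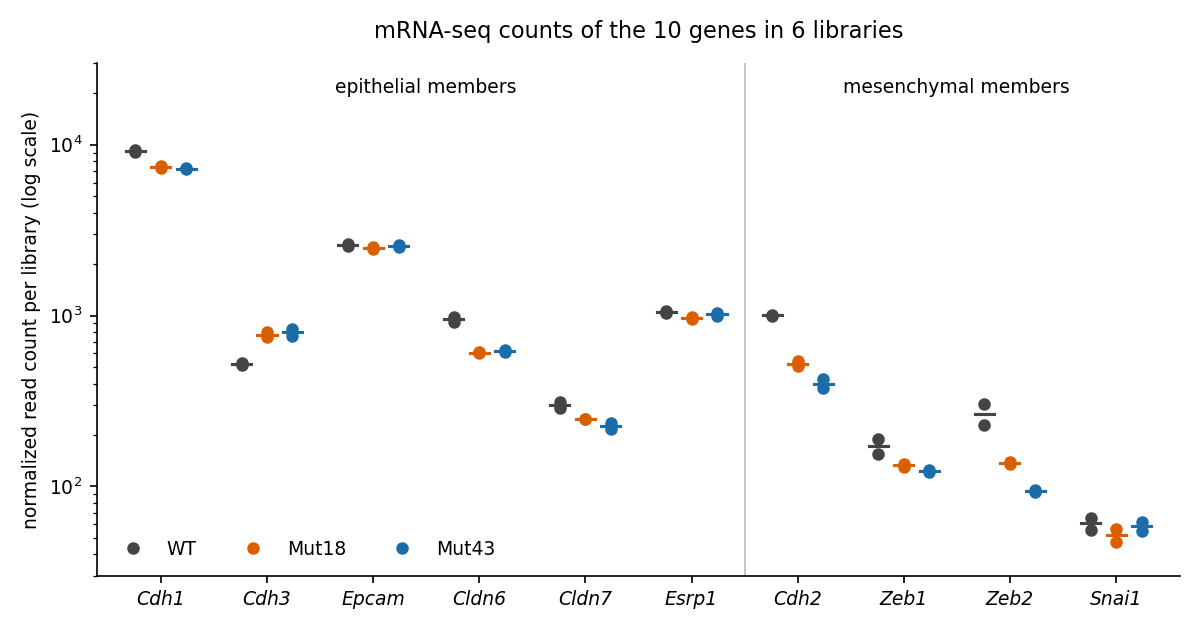
Normalized mRNA-seq read counts (log scale) of the 10 genes, each point 1 library and each short line the mean of the 2 libraries of WT, Mut18 or Mut43. The mutant points of Cdh2 (at most 540) sit far below WT (about 1000), those of Cdh3 sit above WT, and those of Epcam, Esrp1 and Snai1 overlap with WT.

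Of the classical cadherins, E-cadherin and N-cadherin fell while P-cadherin rose. Cdh1, on chromosome 8 at 106603351 to 106670246 (plus strand), encodes E-cadherin, the main adhesion molecule of ESC colonies. It had 9312 and 9129 normalized counts (WT), 7269 and 7512 (Mut18) and 7267 and 7212 (Mut43). All 4 mutant libraries lay below both WT libraries, as they did for 30.3% of tested genes. The log2 fold change was -0.33 ± 0.04 (SE; 2 WT and 4 mutant libraries), or 79.3% of the WT level, with an adjusted p of 1.69e-07.

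Cdh2 encodes N-cadherin, the cadherin of mesenchymal and neural cells. Its counts were 1014 and 999.7 (WT), 505.7 and 540.2 (Mut18) and 422.4 and 376.5 (Mut43). The groups did not overlap, and both Mut43 libraries lay below both Mut18 libraries, as for 19.4% of tested genes. The log2 fold change was -1.13 ± 0.09 (SE), or 45.8% of WT, with an adjusted p of 2.52e-09. The WT libraries lay close together for this gene (1007 ± 10.2, SD, n = 2), although they differed in fibroblast RNA. The fibroblast markers fell along the same order of lines as Cdh2, and their part in its fall was not tested.

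Cdh3 encodes P-cadherin, a cadherin of placenta and basal epithelia, and it is the neighbour of Cdh1. It lies on chromosome 8 at 106510891 to 106557297 (plus strand), and 46.1 kb separate its end from the start of Cdh1. Its counts were 528.1 and 510.6 (WT), 746.0 and 797.1 (Mut18) and 758.2 and 837.3 (Mut43). All 4 mutant libraries were above both WT libraries, as for 29.4% of tested genes. The log2 fold change was 0.59 ± 0.06 (SE), a 1.51-fold rise with an adjusted p of 1.85e-07, against 23.5% of tested genes called higher. These neighbouring cadherin genes thus moved in opposite directions in every mutant library.

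Among the claudins, which form the seal of tight junctions, both members fell. Cldn6, on chromosome 17 at 23679249 to 23682446 (plus strand), is a claudin of embryonic epithelia. It had 921.4 and 975.2 normalized counts (WT), 609.8 and 599.9 (Mut18) and 615.7 and 630.2 (Mut43). The mutant libraries lay close together and far below WT, with a log2 fold change of -0.63 ± 0.06 (SE), 64.7% of WT, and an adjusted p of 1.11e-08. Cldn7, on chromosome 11 at 69964779 to 69967885 (plus strand), encodes a claudin that binds Epcam. Its counts were 287.0 and 311.7 (WT), 247.3 and 248.8 (Mut18) and 215.8 and 236.5 (Mut43).

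The fall of Cldn7 was smaller, and it ran against its chromosome. Its log2 fold change was -0.34 ± 0.09 (SE) with an adjusted p of 0.00281. The 1182 tested genes of chromosome 11 had a median log2 fold change of 0.39, so that Cldn7 lay 0.72 below that median, and 7.19% of these genes were lower still. Without WT replicate 2 the Cldn7 change was -0.27 and did not pass (adjusted p = 0.0615, range over all alternatives 0.00138 to 0.230).

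Epcam did not pass the test. It lies on chromosome 17 at 87635979 to 87651129 (plus strand) and encodes an epithelial adhesion molecule that is abundant on ESCs. Its normalized counts were 2563 and 2625 (WT), 2521 and 2467 (Mut18) and 2578 and 2526 (Mut43). The groups overlapped, and the log2 fold change of -0.04 (95% interval -0.12 to 0.04) did not pass (adjusted p = 0.429).

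Esrp1, on chromosome 4 at 11331933 to 11386783 (minus strand), encodes a splicing regulator that sets epithelial isoforms. It had 1065 and 1032 normalized counts (WT), 958.3 and 985.3 (Mut18) and 1036 and 1001 (Mut43). One mutant library lay between the WT libraries, and the log2 fold change of -0.08 (95% interval -0.18 to 0.03) did not pass (adjusted p = 0.217). Its exons share 127 bases with the non-coding Gm26663 on the other strand, which has no row in the count table.

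Of the repressors, Zeb2 and Zeb1 fell and Snai1 did not pass. Zeb2, on chromosome 2 at 44983632 to 45117395 (minus strand), encodes a zinc finger repressor of E-cadherin. Its normalized counts were 304.5 and 228.4 (WT), 138.2 and 134.5 (Mut18) and 92.6 and 95.4 (Mut43). The groups did not overlap, but WT library 1, the library with more fibroblast RNA, was well above WT library 2. The log2 fold change was -1.21 ± 0.14 (SE), or 43.3% of WT, with an adjusted p of 6.31e-07. Without WT replicate 1 it was -0.98, still called but no longer past 2-fold. Zeb2 shares 181 bases of exon with the antisense Zeb2os, and reads of both could be mixed if strand was not used in counting.

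Zeb1 encodes the sister factor of Zeb2, and its exons share 198 bases with Gm10125 on the other strand, so the same limit on strand holds. It had 190.3 and 154.9 normalized counts (WT), 130.2 and 135.5 (Mut18) and 125.2 and 121.8 (Mut43). The mutant libraries agreed closely, while those of WT differed more from each other, with library 1 the higher as for Zeb2. The log2 fold change was -0.43 ± 0.11 (SE) with an adjusted p of 0.00366. Without WT replicate 1 it was -0.27 and did not pass (adjusted p = 0.158, range over all alternatives 0.00160 to 0.158). The part of fibroblast RNA in the WT level of either Zeb gene was not tested.

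Snai1, on chromosome 2 at 167538195 to 167542814 (plus strand), encodes Snail, a repressor that acts early in the transition. It was the gene with the fewest reads of the 10, with 65.4 and 55.9 normalized counts (WT), 56.1 and 47.5 (Mut18) and 55.0 and 61.9 (Mut43). The groups overlapped, and at this depth the log2 fold change of -0.14 had a 95% interval from -0.50 to 0.23 (adjusted p = 0.541).

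Each clone was next set against WT, to ask whether both carried the same changes. The comparisons share the WT libraries and are not independent of each other. In Mut18, 21% of tested genes were lower and 20.3% higher, and in Mut43 these shares were 23.9% and 22.9%. The adhesion genes gave 6 lower and 1 higher in Mut18, and 6 lower and 1 higher in Mut43. The log2 fold change of Cdh1 was -0.32 in Mut18 and -0.35 in Mut43, that of Cldn6 was -0.65 and -0.61, and that of Cdh3 was 0.57 and 0.62. That of Cldn7 was -0.27 in Mut18 and -0.40 in Mut43, and that of Zeb1 was -0.38 and -0.48. Past 2-fold, none of the 10 was lower in Mut18 (beside 4.74% of tested genes), while Cdh2 and Zeb2 were in Mut43 (6.81%).

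The clones were then tested against each other, which called 37 genes (0.263%) lower and 9 (0.064%) higher in Mut43. Cdh2 was 1 of the 37. Its level in Mut43 was 76.4% of that in Mut18, a log2 difference of -0.39 ± 0.08 (SE, adjusted p = 0.0256). Against WT, its log2 fold change was -0.95 ± 0.07 in Mut18 and -1.33 ± 0.07 in Mut43. Zeb2 differed in the same direction, with a log2 difference of -0.54 (95% interval -0.84 to -0.23), and did not pass after adjustment (adjusted p = 0.165). The other 8 had differences between -0.13 and 0.17 with adjusted p-values of at least 0.788, and the intervals reach -0.38 for Zeb1 and 0.60 for Snai1. With DESeq2 the Cdh2 difference was also -0.39 but did not pass (adjusted p = 0.131), the highest of its alternatives. The fibroblast markers summed to 8823 and 9827 normalized counts in Mut18 and to 6932 and 7343 in Mut43, and their part in the Cdh2 difference was not tested.

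**Figure D2:**
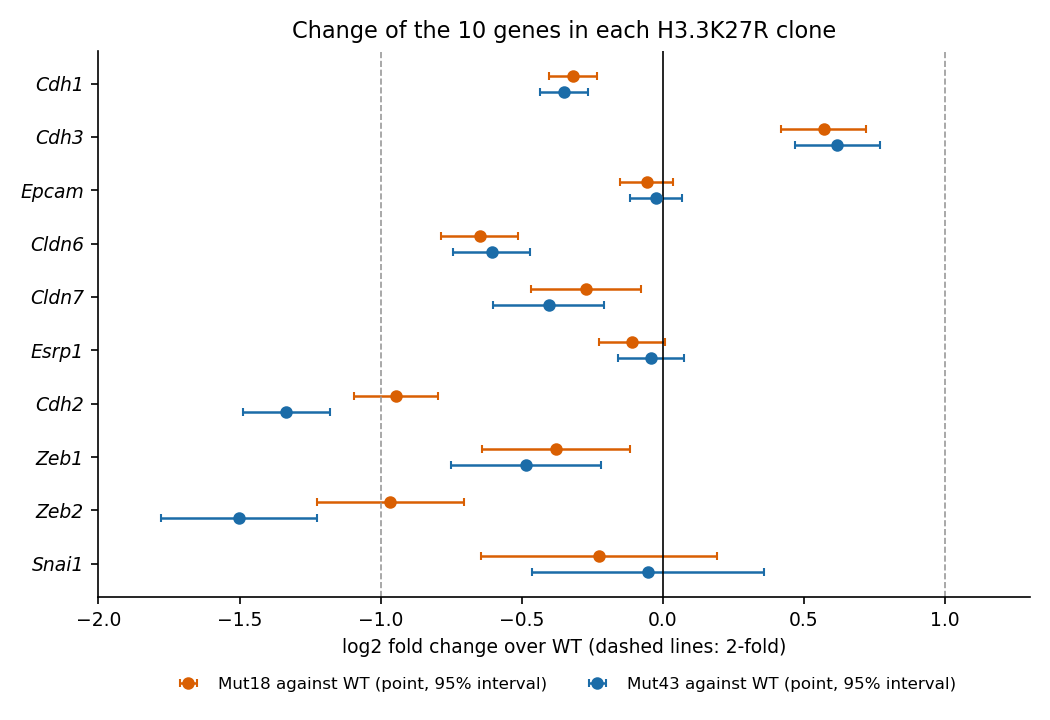
Log2 fold change over WT of the 10 genes in Mut18 and Mut43 (points, with 95% intervals from the 3-group edgeR fit) and dashed lines at 2-fold. The intervals of the clones are apart for Cdh2 and touch or overlap elsewhere, and in both clones Cdh3 is the gene called higher.

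Levels were compared between genes as RPKM, the reads per kb of exon union scaled by the TMM-adjusted library total. Cdh1 stood highest, with 134 ± 1.88 (SD, n = 2) in WT and 106 ± 1.95 (SD, n = 4) in the mutants, followed by Epcam at 78.4 ± 1.32 and 76.3 ± 1.37 and Cldn6 at 36.6 ± 1.47 and 23.7 ± 0.49. Zeb2 was lowest, at 0.89 ± 0.18 in WT and 0.38 ± 0.08 in the mutants. The middle of the order was close in WT, where Esrp1 (11.04), Cldn7 (10.2), Cdh2 (8.28) and Cdh3 (7.86) followed each other. Each pair of neighbours in the WT order had libraries that did not overlap, except Zeb1 (1.12) and Zeb2. In the mutants no pair of neighbours overlapped. Cdh3 ranked 7 in WT and 4 in the mutants, where it reached 11.9 ± 0.63, past Esrp1 (10.5), Cldn7 (8.08) and Cdh2 (3.79). This rank depended on length. By the longest transcript, Cdh3 ranked 5 in the mutants, below Esrp1 (17.1) and overlapping with Cldn7 (11.8), while its own 11.9 was the same.

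The ratio of Cdh1 to Cdh2 levels per kb was 16.2 and 16.1 (WT), 25.3 and 24.5 (Mut18) and 30.3 and 33.8 (Mut43). All 4 mutant libraries were above WT, although Cdh1 itself had fallen, since Cdh2 fell further. By the longest transcript the mean ratio was 10.0 in WT and 17.7 in the mutants, against 16.1 and 28.5 by the exon union. The 6 epithelial genes summed to an RPKM of 278 ± 1.07 (SD, n = 2) in WT and 237 ± 1.10 (SD, n = 4) in the mutants. The 4 mesenchymal genes summed to 12.8 ± 0.70 in WT and 7.26 ± 0.55 in the mutants. The mutants thus held 85.1% and 56.9% of the WT sums. Single genes weighed heavily in these sums. Cdh1 made up 48.1% of the epithelial sum in WT and 44.9% in the mutants. Cdh2, at 8.28 in WT and 3.79 in the mutants, was the largest part of the mesenchymal sum. Cdh3, measured against Cdh1, went from 5.92% and 5.84% of the Cdh1 level in WT to between 10.7% and 12.1% in the mutants. These ratios are descriptions and were not tested.

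**Figure D3:**
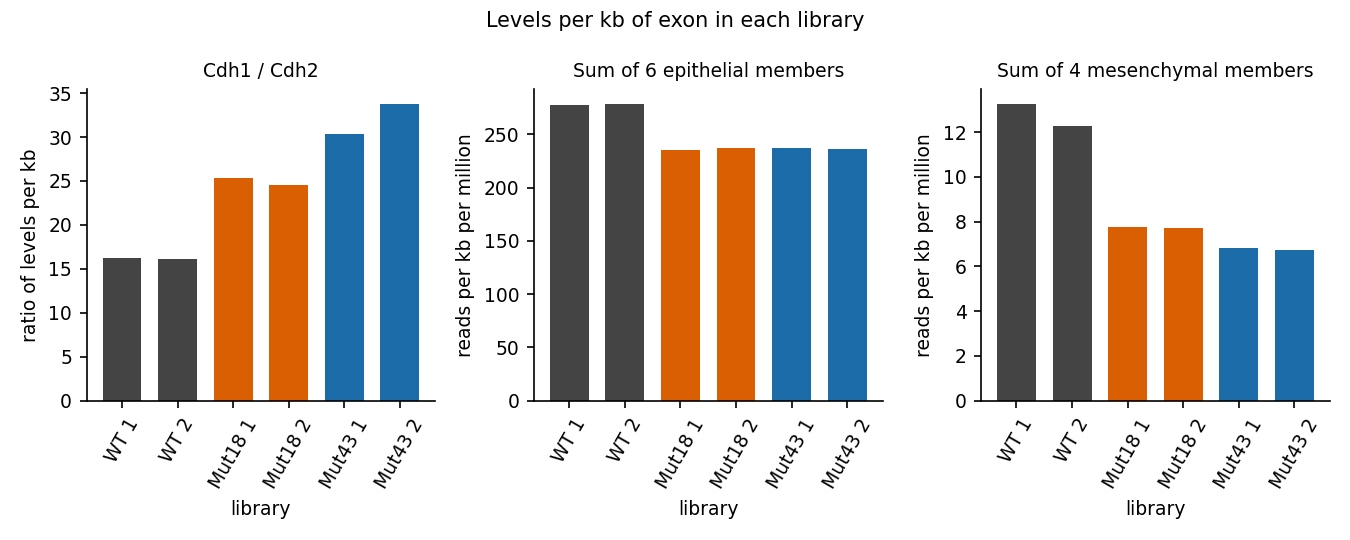
Ratio of Cdh1 to Cdh2 levels, and summed levels of the 6 epithelial and the 4 mesenchymal genes in RPKM, with 1 bar per library and axes from 0. The ratio is near 16 in WT and from 24.5 to 33.8 in the mutants, while both sums are lower in every mutant library.

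The wider adhesion programmes were read from 7 lists of related genes, of which 86 genes were tested. Of these, 47 were lower (11 past 2-fold), 13 higher (1 past 2-fold) and 26 did not pass, with a median log2 fold change of -0.28. Lower calls thus made up more of these lists than of all tested genes (24.5%), and higher calls made up less (23.5% of all). With DESeq2, 40 were lower and 12 higher. The lists were chosen with earlier results of these data known and were not tested as sets, so these shares are only descriptions.

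Among genes of the cadherin-catenin junction, 10 of 15 were lower and 1 was higher (median -0.35). With DESeq2, 9 were lower. The 4 that fell past 2-fold were all genes of other cadherins. Cdh5 was among them at -1.25, with 107 normalized counts in WT library 1 and 32.3 in WT library 2. Without WT replicate 1 its log2 fold change was -0.14. Ctnnb1, which encodes beta-catenin, the partner of the cadherin tail, had a log2 fold change of -0.06 and did not pass (adjusted p = 0.190). Cdh11, a cadherin of mesenchymal cells, fell to a log2 fold change of -1.82 ± 0.16 (SE, adjusted p = 9.21e-09), Vcl (vinculin) to -0.50 and Pdlim5 to -0.36. Cdh11 had 187 and 152 normalized counts in WT and 41.6 to 62.1 in the mutants. Jup, which encodes plakoglobin and lies on chromosome 11, rose by 0.44, close to the median of 0.39 on that chromosome.

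Of 16 tested genes of claudins and tight junctions, 8 were lower and 1 higher (median -0.24). With DESeq2, 6 were lower. Marveld2 (tricellulin) fell to a log2 fold change of -0.84, Inadl, a polarity scaffold, to -0.75 and Cldn12 to -0.44. Tjp3 (ZO-3) rose by 0.98, from 67.6 and 70.3 normalized counts in WT to between 121 and 152 in the mutants. Of 8 genes that partner Epcam or belong to the matriptase system, 5 were lower and 1 higher (median -0.31). The hyaluronan receptor gene Cd44 changed by -1.05 and the surface glycoprotein gene Cd24a by -0.75. Spint2, an inhibitor of matriptase, rose by 0.17, but without WT replicate 1 it was at 0.09 and did not pass (adjusted p = 0.236).

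The list of epithelial transcription and splicing regulators went the other way, with 6 of 11 higher, beside 23.5% of all tested genes, and 1 lower (median 0.33). Grhl3 and Ovol1, transcription factors of epithelial differentiation, rose by 0.89 and 0.93 on the log2 scale, and Elf3 by 0.49. Grhl2, which maintains E-cadherin expression in epithelia, was the gene that fell (-0.48 ± 0.06, SE, adjusted p = 2.94e-06). Grhl2 had 787 and 864 normalized counts in WT and 546 to 610 in the mutants. Esrp2, the paralogue of Esrp1, had a log2 fold change of 0.18 and did not pass (adjusted p = 0.109).

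Among desmosome and simple keratin genes, 5 of 10 were lower and 2 higher (median -0.23). Perp, Dsp (desmoplakin) and Dsg2 (desmoglein) fell to -0.54, -0.55 and -0.68, and Krt8 to -0.31, whereas Krt18, its partner keratin, had -0.15 and did not pass (adjusted p = 0.0703). Pkp2 (plakophilin) rose by 0.82, and Krt19, on chromosome 11, by 0.35, which did not pass without WT replicate 1 (adjusted p = 0.145).

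On the mesenchymal side, 4 of 8 other transcription factors of the transition were lower and none was higher (median -0.45). Without WT replicate 1, the library with more fibroblast RNA, 2 were lower, since Tcf4 (adjusted p = 0.157) and Foxc1 (adjusted p = 0.135) no longer passed. Prrx1 changed by -1.31, Twist1 by -1.11 and Tcf4 by -0.24, while Snai2 (Slug), with 16.2 to 32.2 normalized counts per library, had -0.55 and did not pass (adjusted p = 0.0982). Among mesenchymal effectors, 14 of 18 were lower and 2 higher (median -0.46). S100a4 changed by -2.05, the collagen crosslinker gene Lox by -1.37 and the fibronectin receptor gene Itga5 by -0.52. Vim (vimentin) had 5818 and 5354 normalized counts (WT), 4238 and 4041 (Mut18) and 3394 and 3158 (Mut43), with a log2 fold change of -0.59 ± 0.08 (SE, adjusted p = 1.96e-06). Tgfb1 was higher by 0.51. Fn1 (fibronectin) was higher by 0.09 (adjusted p = 0.0472), a call that was lost with the replicate block (adjusted p = 0.0741), without either WT or either Mut43 replicate and without Mut18 replicate 2 (adjusted p of 0.0679 to 0.203). Fibroblasts also express many of these genes. The fall of the fibroblast markers (12 of 13 lower, 8 with DESeq2, median -0.78) stands beside this list. Its part was not tested.

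**Figure D4:**
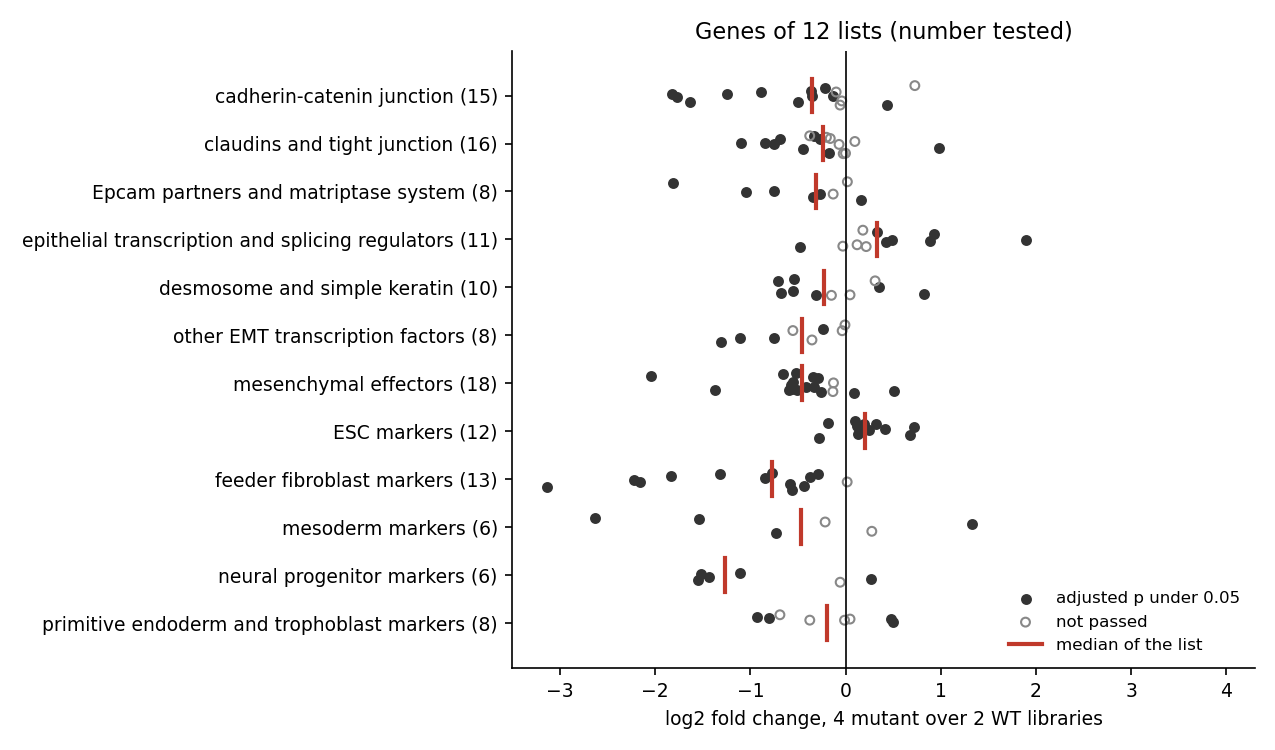
Log2 fold change, 4 mutant over 2 WT libraries, of each tested gene (point, filled where the adjusted p was under 0.05) in 7 adhesion lists and 5 cell type lists, with the median of each list as a red line. The medians of the lists of epithelial regulators (0.33) and ESC markers (0.21) are above 0, and those of the other 10 lists are below 0.

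Markers of other fates that ESC cultures can hold were read beside the adhesion genes, and their counts stand against 24.5% lower and 23.5% higher among all tested genes. Of 12 ESC markers 10 were higher and 2 lower (median 0.21): Zfp42, Klf2 and Esrrb rose by 0.72, 0.68 and 0.41, Klf4 by 0.32 and Nanog by 0.20, whereas Pou5f1 changed by -0.27 and Utf1 by -0.19 (not passed without WT replicate 2, adjusted p = 0.205). The count of higher ESC markers was 10 with DESeq2 and 9 with the replicate block. With 1 mutant library left out, it was lowest without Mut43 replicate 2, at 8. Leaving out a WT library leaves 1 in that group, so no count of ESC markers is given for those fits. Of 6 mesoderm genes tested, 3 were lower and 1 higher, with T (Brachyury) at -2.63, Kdr at -1.54, Eomes at -0.73 and Hand1 at 1.33. Of 6 neural progenitor genes, 4 were lower and 1 higher, with Sox3 at -1.55, Nes (nestin) at -1.51, Sox1 at -1.10 and Pax6 at 0.27 (not passed without WT replicate 2, adjusted p = 0.191). With DESeq2, 3 neural genes were lower. Of 8 genes of primitive endoderm and trophoblast, 2 were lower (Dab2 at -0.93, Cdx2 at -0.80) and 2 higher (Gata4 at 0.50, Tfap2c at 0.48). Gata4 did not pass with DESeq2 (adjusted p = 0.143), or without either WT replicate or either Mut43 replicate, which left 1 higher. The summed mesoderm markers had 636 to 654 normalized counts in WT and 284 to 310 in the mutants, and the neural ones 3958 to 4058 and 2193 to 2366. Nes carried most of the neural sum, with 2453 to 2632 in WT and 795 to 996 in the mutants, and the other neural genes summed to 1426 to 1504 and 1289 to 1441. Among the fibroblast markers with the lowest adjusted p, Fbln2 changed by -1.32, Postn by -2.22 and Tagln by -0.78. The part of any of these cell types in the levels of the 10 adhesion genes was not tested.

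ATAC-seq, which cuts accessible DNA with a transposase, asked whether the start regions of these genes were open. The peaks were called in each library separately, as 63588 to 78536 peaks with no read numbers, so presence of a peak was compared and not its height. Of the 10 genes, 9 had a peak within 1000 bp of an annotated start in all 6 libraries, beside 81.7% of 16095 promoters. Cldn6 had no such peak in any library, and with a 2000 bp window it too had peaks in all 6. With the same number of strongest peaks taken from each library, 8 of the 10 had one in all 6. The 9 with open promoters thus include both genes that fell past 2-fold, Cdh2 and Zeb2.

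In and within 10 kb of the 10 genes there were 60 merged regions, of which 35 (58.3%) had a peak in all 6 libraries, beside 54.7% of all 89596 regions. Peaks that both WT libraries shared and the 4 mutant libraries all lacked made up 2 regions (3.33%, beside 3.25% of all). The converse, a peak in each mutant library but in neither WT library, was not found (0.733% of all).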

How the data were processed

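mRNA-seq and ATAC-seq of WT, Mut18 and Mut43 ESCs were used, with 2 libraries each per line, grouped by the sample titles. The deposited mRNA-seq table holds raw counts, unnormalized and in whole numbers, and its 6 columns all matched a title. For ATAC-seq they deposited a peak list per library with a fold enrichment ratio, a −log10 p and a −log10 q. The submitters' processing notes name STAR, Bowtie2 2.3.4.2, SAMtools, deepTools 3.3.0, MACS2 and DESeq2 and the build mm10. The counting program, its use of strand and the gene annotation are not given in the sources used here. ChIP-seq samples were not used here.

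Counts were filtered with edgeR 4.0.16 in R 4.3.3 (minimum count 10, minimum total 15), normalized by TMM and tested by quasi-likelihood over 14061 genes, with adjusted p-values (Benjamini-Hochberg). The call was made at an adjusted p under 0.05. Intervals at 95% used the fit's degrees of freedom. Normalized counts are counts divided by TMM-scaled totals relative to their mean. The script was tested on simulated counts. GENCODE M21 (GRCm38, the build of mm10) gave positions and exon lengths, for 15618 symbols directly and 477 by synonym of 16263. Peaks overlapping by 1 bp were merged. Promoter windows came from RefSeq (GRCm38.p6). Counting error alone did not account for the spread of replicates (chi-square per gene 1.81 to 3.06). The p-values measure the spread among the 2 WT and 4 mutant libraries only. With a single WT line and 2 clones, effects of genotype, line and clone cannot be told apart.

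The 10 genes and the lists were chosen with earlier results of these data known. Named beside the 10 are up to 3 genes per list and direction with the lowest adjusted p, and Vim, Fn1, Snai2, Twist1, Esrp2, Grhl2, Ctnnb1, Krt8, Krt18, Pou5f1, Nanog and Klf4. Cdh5, Cdh6, Cdh13, Foxc1, Col3a1 and Lum fall outside this rule and were named after their values were seen. RPKM values were computed from TMM-scaled totals and union exon length. Alternatives were DESeq2 1.42.0, other scalings and filters, a replicate block, each clone alone, a test against a 1.2-fold change, each library left out, longest transcript lengths, and other peak numbers, windows, overlaps and q limits. The results on 1 list gene and 1 ATAC-seq region are not reported here.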

Additional observations from a re-analysis of the deposited data

Results flagged for a closer look

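Cdh2 differed between the clones, with a log2 difference of -0.39 (Mut43 against Mut18) in edgeR's quasi-likelihood test of the difference itself. Both Mut43 libraries (422.4 and 376.5 normalized counts) lay below both Mut18 libraries (505.7 and 540.2), as for 19.4% of tested genes. None of the 10 genes had a mutant library that stood apart from the other 3 by Dixon's 95% critical value. That test looks for a single library apart, so it cannot flag clones that differ as pairs of libraries, as for Cdh2.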

How the results depend on the processing

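The replicate numbers did not pair the samples, since deviations from the line means correlated between -0.06 and 0.01 for same-numbered libraries, so the numbers are only names. With the replicate as a block, 6 of the 10 genes were still lower and 1 higher in the mutants, and the block changed none of these calls. The counts of 6 lower and 1 higher held within 1.5 times under every alternative run, and no gene reversed a call. Past 2-fold, 2 genes were lower, but 0 with Mut18 alone, where Cdh2 and Zeb2 fell short of 2-fold, and 1 to 2 when 1 library was left out, with 1 without WT replicate 1. The call of 1 gene lower in Mut43 than in Mut18 became 0 with DESeq2. Against a 1.2-fold change, Cldn7 and Zeb1 did not pass (adjusted p = 0.230 and 0.0905). With DESeq2, Zeb1 did not pass in Mut18 (adjusted p = 0.214) or in Mut43 (0.0791), nor Cldn7 in Mut18 (0.236). Without 1 library, the log2 fold change ranged from -1.21 to -1.04 for Cdh2, from -1.39 to -0.98 for Zeb2 and from 0.56 to 0.62 for Cdh3. With the longest transcript as length, the Cdh1 to Cdh2 ratio was 10.0 in WT and 17.7 in the mutants, and the epithelial to mesenchymal ratio 14.98 and 23.8, in place of 16.1, 28.5, 21.8 and 32.7. With equal numbers of strongest peaks, 1 region was found in all 4 mutant libraries only. Without WT replicate 1, the library highest in fibroblast RNA, a choice made after seeing the data, the fibroblast list had 9 lower genes in place of 12. Under the other scalings the median log2 fold change of all tested genes lay between -0.04 and 0.02. Snai1, with 47 to 67 reads per library, is limited by depth, and the ATAC-seq lists hold no reads, so a missing peak is not a measured loss.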
